A study of Mus musculus with 17 samples.

Results

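Late recovery after cuprizone, at 7 weeks, was compared with early recovery, at 5.5 weeks, in ribosome-bound RNA of the corpus callosum, a white matter tract that joins both hemispheres. The comparison takes the cuprizone libraries that the labels place in Batch2, 6 of the 17 libraries of the series, with 3 labelled replicates per time point. Of these 6, only 4 were used as separate libraries: cuprizone replicates 1, 2 and 3 at 5.5 weeks, and cuprizone replicate 2 at 7 weeks. All came from male GFAP-Cre+/- Rpl22HA/wt mice, aged 8 to 9 weeks when feeding with 0.2% cuprizone in chow began. Feeding lasted 5 weeks in both groups. The 5.5-week group was taken 0.5 weeks after cuprizone was withdrawn, and the 7-week group had 2 weeks of regular chow. Mock mice of the same genotype and age ate normal chow. They enter no comparison here, and 3 of their libraries are given only as a background for how much 5.5 and 7 weeks differ without cuprizone. Whether a library is 1 mouse or a pool is not given in the sources used here.

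Rpl22HA is the RiboTag allele, in which Cre recombinase switches on a ribosomal protein Rpl22 that carries an HA tag, so that ribosomes and their mRNA can be pulled down with an antibody. GFAP-Cre targets astrocytes. Some GFAP-Cre lines also recombine in neural progenitors and so mark neurons, and the line used is not named in the sources used here. Cuprizone is a copper chelator that kills mature oligodendrocytes and strips their myelin. After it is withdrawn, oligodendrocyte precursors mature and wrap axons again, microglia clear myelin debris, and astrocytes, which had become reactive with high Gfap, return part of the way to their resting state. In bulk samples such as these, fewer cells of a type and less RNA per cell cannot be told apart.

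The 7-week library stood apart from the other libraries of its batch. Its total of 24670010 counts lay within the 22115776 to 29698113 counts of the 5.5-week cuprizone libraries. Yet 34576 genes had a count, against 23240 to 23635 at 5.5 weeks and 23539 to 23980 in the mock libraries, and 15206 genes had 1 to 9 counts, against 7519 to 7829 at 5.5 weeks. Of 1752 olfactory and vomeronasal receptor genes, which as a class are not known for expression in the brain, 970 had a count, against 62 to 75 at 5.5 weeks and 76 to 112 in mock. Messenger RNA of the mitochondrial genome held 0.368% of its counts, against 0.0299% to 0.0432%, and long noncoding genes held 1.82%, against 0.596% to 0.629%. These values move with every result given here, and their part in the results was not tested. The week and this library cannot be told apart, since it is the lone separate library at 7 weeks. The labels give it as immunoprecipitated RNA like the others. Whether its RNA is as much restricted to tagged ribosomes as theirs was not tested, so its values are read here as levels in this library.

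The other 2 libraries labelled 7 weeks largely repeat replicate 2. Among genes with 500 or more counts in replicate 2, replicate 1 lay 1 to 10 counts above it for 68.7% and more than 10 above it for 31.3%, and no gene lay below. Replicate 3 lay 1 to 10 counts above it for 87.2% and more than 10 above it for 12.6%, and again no gene lay below. Between 5.5-week libraries at most 2.35% of such genes lay within 10 counts of each other. Where replicate 1 departs from replicate 2 it holds more counts, and this touches the genes that were lowest at 7 weeks: C1ql2 had 361 counts in replicate 2, 1839 in replicate 1 and 364 in replicate 3. Values with replicate 1 in place of replicate 2 are therefore given for the 15 largest falls and for other named genes that they move most.

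Many more genes were above the 5.5-week range at 7 weeks than below it. Levels are CPM, counts scaled to library size, after TMM scaling, which sets library sizes from the genes that change least. Of 12193 genes with at least 5 CPM in 1 of the 4 libraries, 797 (6.54%) lay 2-fold or more above the highest 5.5-week library and 105 (0.861%) lay 2-fold or more below the lowest. Each 5.5-week library set against the other 2 gave few such genes of 11320: 0 above and 2 below (0.0177%) for replicate 1, 18 (0.159%) and 6 (0.0530%) for replicate 2, and 3 (0.0265%) and 1 (0.00883%) for replicate 3. The 7-week mock library set against mock 1 and 3 at 5.5 weeks gave 13 above (0.116%) and 20 below (0.178%) of 11228. The lower count rests on 5.5-week replicate 2: without it 936 genes (7.69%) lay above and 302 (2.48%) below. Without replicate 1 there were 842 (6.90%) and 112 (0.917%), and without replicate 3 842 (6.90%) and 117 (0.958%). Genes that reach 5 CPM only in the 7-week library enter through it, so they had to lie above the range. Itgam, for instance, had 5.3 CPM there and at most 0.189 CPM at 5.5 weeks. The share of such genes among the 797 was not worked out.

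**Figure D1:**
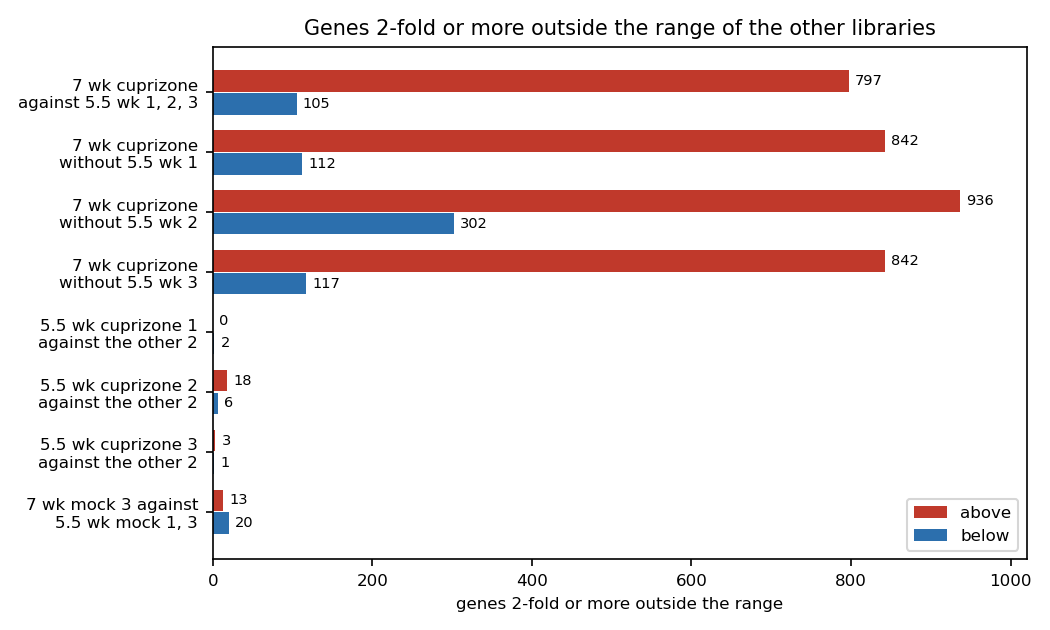
Bars give the number of genes 2-fold or more above (red) or below (blue) the range of the libraries compared with, on a linear axis from 0. The 7-week cuprizone library has 797 above and 105 below, 5.5-week libraries against each other have 0 to 18, and the 7-week mock library has 13 and 20. Genes that reach 5 CPM only in the 7-week cuprizone library had to lie above.

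By edgeR's quasi-likelihood test with Benjamini-Hochberg adjustment, 4837 of 19307 genes (25.1%) were higher and 2996 (15.5%) lower at an adjusted p below 0.05. The spread in this test comes from the 3 libraries at 5.5 weeks, and the lone 7-week library is assumed to vary like them. The 25.1% and 15.5% of all genes stand beside each count of called members given below. Without 5.5-week replicate 2 the counts were 5920 higher and 5025 lower. All 797 and 105 genes beyond the range were also called by the test. With no margin, 8719 of the 19307 genes (45.2%) lay above every 5.5-week library and 6994 (36.2%) below every one. Scaling by library totals in place of TMM raised the median log2 fold change of all genes from 0.08 to 0.37, and the counts became 6859 higher and 871 lower, so that 88.7% of called genes were higher, against 61.8% under TMM.

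The direction went with the level of a gene. The median log2 fold change was 1.55 for genes under 1 CPM, 0.64 for 1 to 5 CPM, 0.12 for 5 to 20 CPM, −0.18 for 20 to 100 CPM and −0.40 over 100 CPM. A low gene passes the filter if any 1 library reaches the minimum count, so genes that passed through the 7-week library alone had to be higher, and the medians of the lowest levels are partly set by this. Reference genes such as those used to normalise qPCR are abundant, and 7 of the 12 listed were lower and 2 higher, with a median of −0.42. Under library totals 0 were lower and 2 higher. For abundant gene groups below, a second median is therefore given in which each gene is set against genes of its own level (20 bins of equal size), called the level-adjusted median. By type, 1785 of 3223 long noncoding and other genes were higher and 41 lower, while 2860 protein-coding genes were higher and 2925 lower of 15173. Of the 797 genes beyond the range 647 code for protein and 143 are long noncoding or other, and their summed level was 4809 to 5760.3 CPM at 5.5 weeks and 30072 CPM at 7 weeks. Of the 105 lower genes 101 code for protein, and their summed level was 24549.9 to 29428 CPM and then 10417 CPM. The transcribed length of the protein-coding genes above the range, with a median of 29.6 kb, was close to the 27.0 kb of all those measured and the 27.1 kb of those below it.

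**Figure D2:**
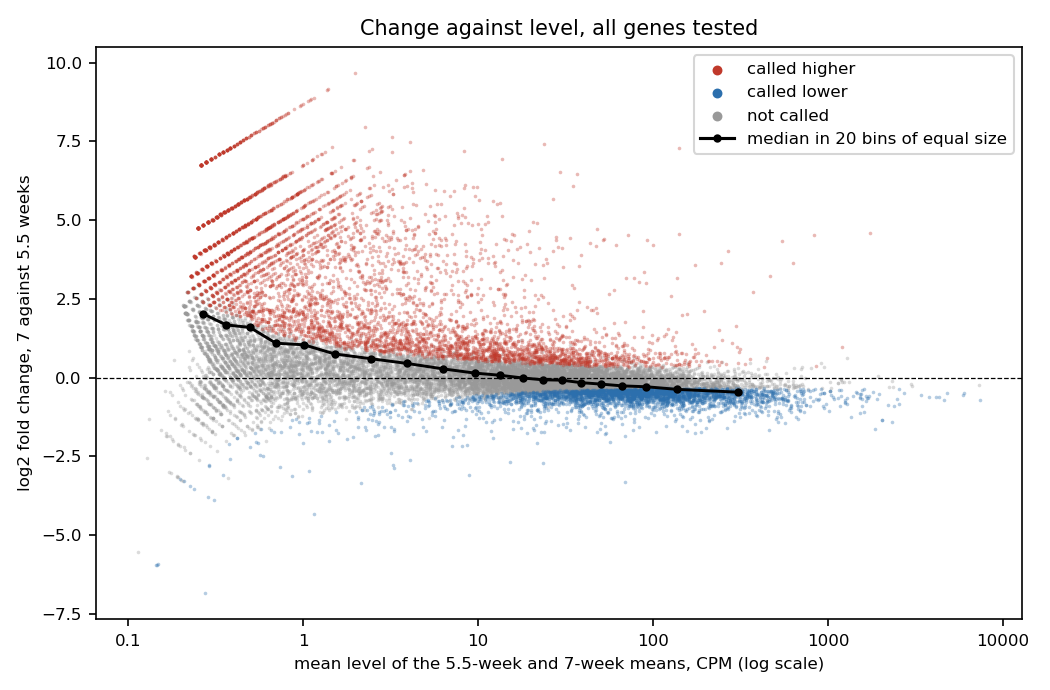
Each point is 1 of 19307 genes, with its mean level in CPM on a log axis against its log2 fold change at 7 against 5.5 weeks, red and blue for genes called higher and lower. The black line, the median in 20 bins of equal size, falls from 2.03 in the lowest bin to −0.46 in the highest.

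Astrocyte markers, against which the label of the cells can be checked, were present in all 4 libraries, and genes of the resting astrocyte moved in both directions. Of 29 homeostatic astrocyte genes, 5 were higher and 7 lower at 7 weeks, against 25.1% higher and 15.5% lower of all genes tested, with a median log2 fold change of −0.04 and a level-adjusted median of 0.33. Under library totals the median was 0.25, with 11 higher and 1 lower. Slc1a2, the main glutamate transporter of astrocytes, had 1829.6, 2189 and 1667 CPM in the 5.5-week libraries and 1969.7 CPM at 7 weeks, inside the range (log2 fold change 0.06 ± 0.16, SE; edgeR adjusted p = 0.803). Aqp4, the water channel of astrocyte endfeet, had 138, 176 and 140.4 CPM and then 249 CPM, above all 3 (log2 difference 0.72 ± 0.15; adjusted p = 0.0028 by edgeR).

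Slco1c1, a thyroid hormone transporter, had the largest rise of this list, with 22.9, 21.2 and 21.9 CPM at 5.5 weeks and 50.1 CPM at 7 weeks (2.28-fold higher; edgeR adjusted p = 7.67e-05). Slco1c1 is also made by brain endothelial cells, whose markers were higher in the same library. Agt, angiotensinogen, went from 17, 21 and 14.5 CPM to 36.2 CPM (edgeR adjusted p = 0.00141). Glul, glutamine synthetase, was lower, with 1659, 1539 and 1461 CPM and then 950.1 CPM (1.63-fold lower; −0.71 on the log2 scale, and −0.36 with 7-week replicate 1; edgeR adjusted p = 0.00203). The other higher members were the GABA transporter Slc6a11 (0.82) and the bicarbonate transporter Slc4a4 (0.73), and the other lower ones were Ndrg2, Cbs, Acsbg1, Aldh1l1, Aldoc and Hepacam, from −0.53 to −0.41 on the log2 scale. All 12 that passed the test are named here.

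Gfap, the intermediate filament by which reactive astrocytes are known, was lower at 7 weeks. It had 6429.6, 5499 and 5206 CPM at 5.5 weeks and 3506 CPM at 7 weeks, below all 3 libraries and 1.63-fold lower, or −0.70 ± 0.16 on the log2 scale (adjusted p = 0.00421 by edgeR). With 7-week replicate 1 the value was −0.71. Abundant genes were lower in general, with a median of −0.46 in the highest of the 20 level bins. The 12 reference genes had a median of −0.42. A part of level or scaling in the fall of Gfap was not tested. Vim, the partner filament, moved the other way, from 64.2, 83 and 58 CPM to 113 CPM (0.73 ± 0.17; edgeR adjusted p = 0.00734). Vim is also made by endothelial cells and microglia, whose markers were higher in the same library, and their part in this value was not tested. Serpina3n, a protease inhibitor and marker of reactive astrocytes, had 96.4, 98.5 and 88 CPM and then 95.4 CPM, inside the range (0.02 ± 0.13; edgeR adjusted p = 0.93).

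Of 13 pan-reactive genes 5 were higher and 1, Gfap, lower, against 25.1% and 15.5% of all genes, with a median of 0.57. The higher ones were Cp, S1pr3, Hspb1, Cd44 and Vim. Cp, ceruloplasmin, a copper-carrying ferroxidase, had 6.3, 5.52 and 4.28 CPM and then 18 CPM (1.74 ± 0.22). S1pr3, a sphingosine phosphate receptor, had 22.4, 18 and 18.9 CPM and then 38.1 CPM (0.95 ± 0.16). All 5 lay above every 5.5-week library, as did 45.2% of all genes. Cd44, a hyaluronan receptor, had 7.73, 11.6 and 8.72 CPM and then 19.6 CPM (edgeR adjusted p = 0.00292). Lcn2, lipocalin, had 1.0, 0.424 and 0.444 CPM and then 0.733 CPM, and was not called. Of 12 A1-type genes 6 were higher and 2 lower (median 0.64). C3, a complement component and the usual A1 marker, had 3.19, 1.98 and 1.98 CPM and then 9.63 CPM, 4.04-fold higher (edgeR adjusted p = 0.000284). Srgn, a proteoglycan of blood and myeloid cells, had 1.22, 1.41 and 1.01 CPM and then 9.7 CPM. Fkbp5 and Amigo2 were the lower members, at −0.79 and −0.55. Of 11 A2-type genes 4 were higher, among them Cd14, a receptor for lipopolysaccharide on myeloid cells (3.8), and 1, the prostaglandin synthase Ptgs2, was lower (−1.28). Microglial markers were higher in the same library, from a summed 80.7 to 105 CPM to 1356 CPM, and their part in these counts was not tested.

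**Figure D3:**
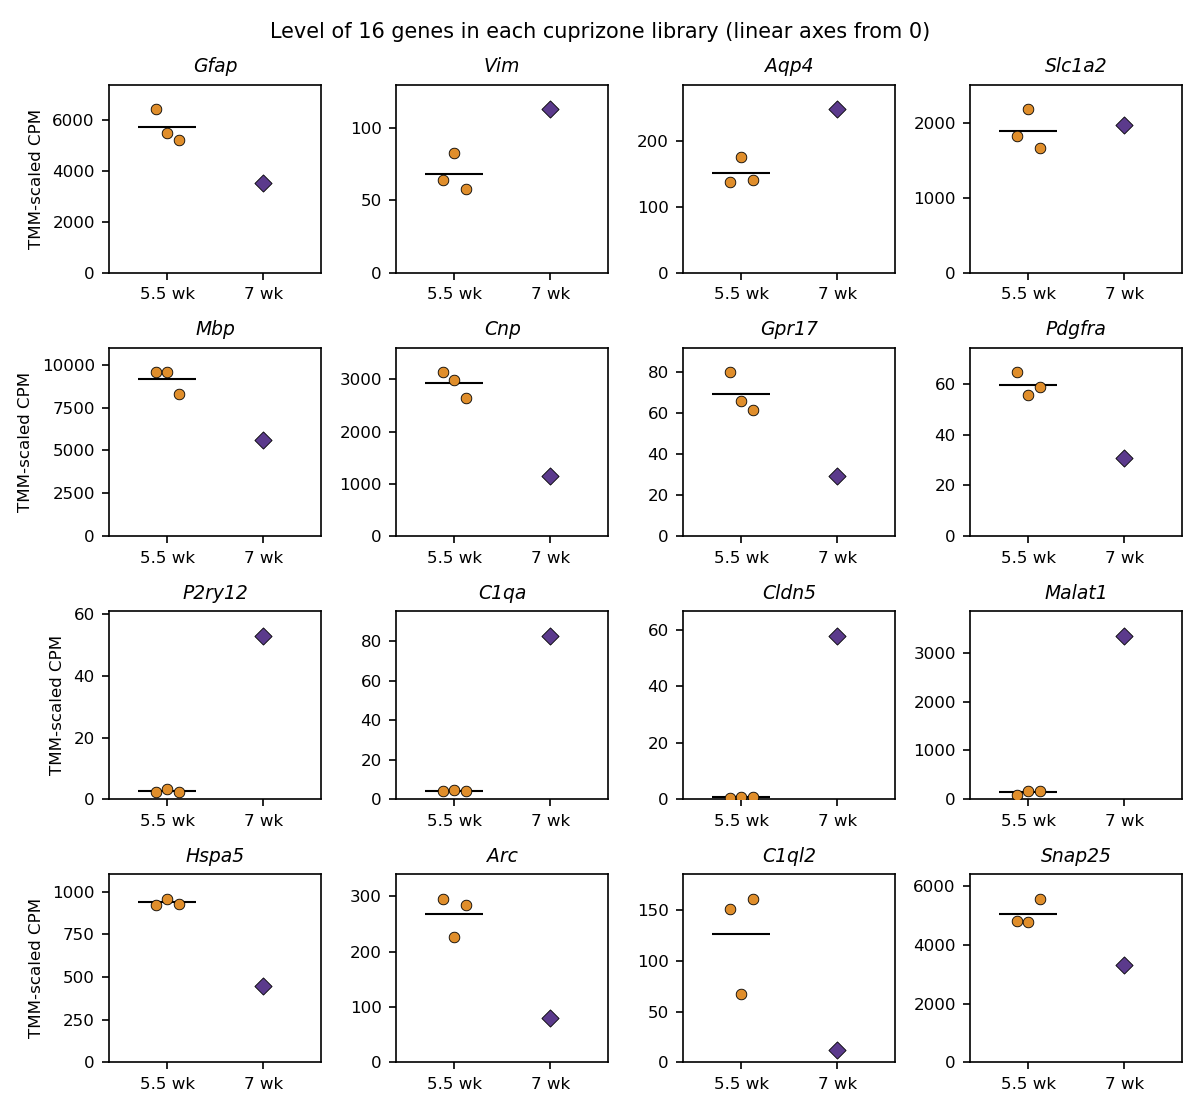
Each panel gives the TMM-scaled CPM of 1 gene on a linear axis from 0: orange circles are the 3 libraries at 5.5 weeks, the bar is their mean, and the purple diamond is the 7-week library. Gfap, Mbp, Cnp, Gpr17, Pdgfra, Hspa5, Arc, C1ql2 and Snap25 lie below all 3 circles, Slc1a2 lies among them, and the other 6 genes lie above.

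A part of the oligodendrocyte lineage transcripts was lower in the 7-week library. These are not astrocyte genes, and they give the level of oligodendrocyte RNA in these libraries, not myelin in the tissue. Among all genes tested 25.1% were higher and 15.5% lower. Of 26 mature oligodendrocyte markers 12 were lower and 0 higher by edgeR, and 14 did not pass. The median was −0.48 (level-adjusted −0.26), against a median of 0.08 over all genes, and the summed level went from 24515.5 to 30054 CPM to 17519 CPM. Under library totals 6 were lower and 2 higher, with a median of −0.19.

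Cnp, a phosphodiesterase of the myelin cytoplasm, had 3138, 2984 and 2649.6 CPM at 5.5 weeks and 1148 CPM at 7 weeks, 2.55-fold lower (−1.35 ± 0.15, SE; edgeR adjusted p = 4.89e-05). Mbp, myelin basic protein, had 9566.5, 9573 and 8316 CPM and then 5593 CPM (−0.71 ± 0.15; edgeR adjusted p = 0.00294). Both lay below every 5.5-week library, as did 36.2% of all genes. Mog and Mag, adhesion proteins of the myelin surface, had log2 fold changes of −0.74 ± 0.17 and −1.04 ± 0.16. The call of Mog was lost under library totals (−0.45). Mobp, a basic protein of myelin, had 592, 602 and 533 CPM and then 704 CPM, above every 5.5-week library, and was not called. Mal, another myelin gene, was at 0.10 and not called.

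Of 20 markers of oligodendrocyte precursors and newly formed oligodendrocytes 8 were lower and 1 higher, with a median of −0.42 that hardly moved against genes of the same level (−0.42). Their summed level went from 1091 to 1311 CPM to 733 CPM. Over all genes tested 25.1% were higher and 15.5% lower. Gpr17, a receptor of cells that are about to mature, had 79.8, 66 and 61.5 CPM and then 29.5 CPM, 2.35-fold lower (−1.23 ± 0.17; edgeR adjusted p = 0.000277). Pdgfra, the growth factor receptor of precursors, had 64.6, 55.7 and 58.8 CPM and then 30.8 CPM (−0.96 ± 0.15; edgeR adjusted p = 0.000587). Olig1, a lineage transcription factor, had 568, 566 and 522 CPM and then 237 CPM (2.33-fold lower), and Neu4, a sialidase, and Susd5 were 2.15-fold and 2.88-fold lower. Gpr17, Pdgfra and Olig1 lay below every 5.5-week library, as did 36.2% of all genes. Enpp6, an early marker of differentiation, Bmp4 and Matn4 were the other lower members (−0.86, −0.96 and −0.58), and Vcan, the proteoglycan versican, the higher one (0.71). Sox10, Sox6, Tcf7l2 and Lhfpl3 were not called, at −0.34, −0.12, −0.11 and 0.04. Under library totals 7 of the 20 were lower and 2 higher. In mock the medians of these 2 lists were 0.11 and 0.01.

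Neuronal transcripts were also present, with interneuron genes higher and several other neuronal genes lower. Of 23 neuronal markers 7 were higher and 8 lower (median −0.01). The 7 higher ones were all genes of inhibitory interneurons, named here after their values were seen. Over all genes tested 25.1% were higher and 15.5% lower. Gad1, which makes GABA, had 59.7, 55.1 and 63.5 CPM at 5.5 weeks and 234 CPM at 7 weeks, 3.93-fold higher (edgeR adjusted p = 8.53e-07). Sst, somatostatin, had 4.3, 8.35 and 5.61 CPM and then 138 CPM. Slc32a1, the vesicular GABA transporter, had 1.25, 2.41 and 1.78 CPM and then 26 CPM. Gad2, Pvalb, Vip and Npy had log2 fold changes of 2.78, 2.57, 3.77 and 2.13. Each of these lay above every 5.5-week library, as did 45.2% of all genes.

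The lower neuronal markers were Camk2a and Neurod6, genes of excitatory forebrain neurons, the neurofilament Nefl, the synapse proteins Syn1 and Snap25, and Rbfox3, Tubb3 and Stmn2. Camk2a had 3583, 2971 and 3578 CPM and then 1273 CPM (−1.41 ± 0.16). Snap25 had 4796, 4754 and 5558 CPM and then 3300.2 CPM (−0.61 ± 0.15; edgeR adjusted p = 0.00666). The vesicular glutamate transporters Slc17a7 and Slc17a6 were not called, at 0.20 and 0.33. With library totals the list had 10 higher and 4 lower, and Snap25 was at −0.32 and not called.

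Genes of hippocampal neurons were among the largest falls, with 5 of the 15 largest. Of 15 listed, 12 were lower and 1 higher, the median was −1.61, and 8 lay 2-fold or more below the range, of the 105 such genes in all. C1ql2, a secreted C1q-like protein of dentate granule cells, had 151, 66.9 and 161 CPM at 5.5 weeks and 12.6 CPM at 7 weeks, 10.03-fold lower (−3.33 ± 0.62; edgeR adjusted p = 0.0105). Prox1, the transcription factor of granule cells, had 101, 51.9 and 97 CPM and then 24.9 CPM (−1.75 ± 0.40). Fibcd1, a gene of pyramidal cells, had 131, 84.2 and 109 CPM and then 29.9 CPM. In these 3 genes, 5.5-week replicate 2 was the lowest of its group, yet above the 7-week library. The same order held for Lct, Smoc2, Npy2r, Pcdh20, Dusp4, Crtc1 and Grm2. Spink8, also of pyramidal cells, differed little between the 5.5-week libraries, with 30.5, 28.7 and 29.4 CPM and then 8.72 CPM. Pcp4, a calmodulin-binding protein and the higher member, had 4.12, 4.95 and 8.2 CPM and then 12.6 CPM. The 12 lower and 1 higher members of this list stand beside 15.5% lower and 25.1% higher of all genes.

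These falls were smaller with 7-week replicate 1 in place of replicate 2. The list's median was then −0.53, and with replicate 3 it was −1.24. C1ql2 was at −1.15 (edgeR adjusted p = 0.244), Lct at −1.04 (0.224), Npy2r at −0.84 (0.0925) and Prox1 at −0.83 (0.175), so that 4 of the 15 genes with the largest falls lost their calls. Spink8 was at −0.41 and Neurod1, another transcription factor of the list, at −0.46 and not called. With no filter on low counts C1ql2 and Lct also lost their calls, at adjusted p = 0.196 and 0.162. In mock the hippocampal median was −0.39 from 5.5 to 7 weeks. There C1ql2 had 149 and 79.9 CPM and then 22 CPM (log2 fold change −2.38), and Prox1 was at −1.22. Of the other largest falls Smoc2, Grm2, Npy2r, Crtc1, Pcdh20 and Lct lay between −1.42 and −0.21 in mock. Dusp4, Fibcd1, Rasd1, Spink8, Arc, Rgs14 and Thsd4 lay between 0.29 and 1.92 there.

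The other genes among the 15 largest falls included Crtc1, a coactivator of the factor CREB, with 356, 202 and 305 CPM and then 86.1 CPM. Rgs14, a regulator of G protein signalling known from hippocampal area CA2, had 175, 132 and 171 CPM and then 47.9 CPM. Rasd1, a Ras-like GTPase, had 98.2, 74.8 and 73.9 CPM and then 23.6 CPM. Smoc2, a secreted matrix protein, was 6.5-fold lower, and Lct, lactase, 6.34-fold lower. The neuropeptide Y receptor Npy2r and the protocadherin Pcdh20 were 4.2-fold lower and 4.12-fold lower. Dusp4, a MAP kinase phosphatase, was 3.77-fold lower, and Thsd4 and the metabotropic glutamate receptor Grm2 were 3.32-fold lower and 3.31-fold lower. Of these 15, all but Arc had more than 10 counts more in 7-week replicate 1 than in replicate 2, and with replicate 1 most of the folds were smaller. On the log2 scale Smoc2 went from −2.7 to −1.35, Pcdh20 from −2.04 to −1.33, Dusp4 from −1.92 to −1.3, Rasd1 from −1.8 to −0.96 and Rgs14 from −1.73 to −0.85. Fibcd1 went from −1.85 to −1.57, Crtc1 from −1.74 to −1.74, Thsd4 from −1.73 to −1.49, Grm2 from −1.73 to −1.85 and Arc from −1.75 to −1.91. These 10 stayed past the threshold.

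**Figure D4:**
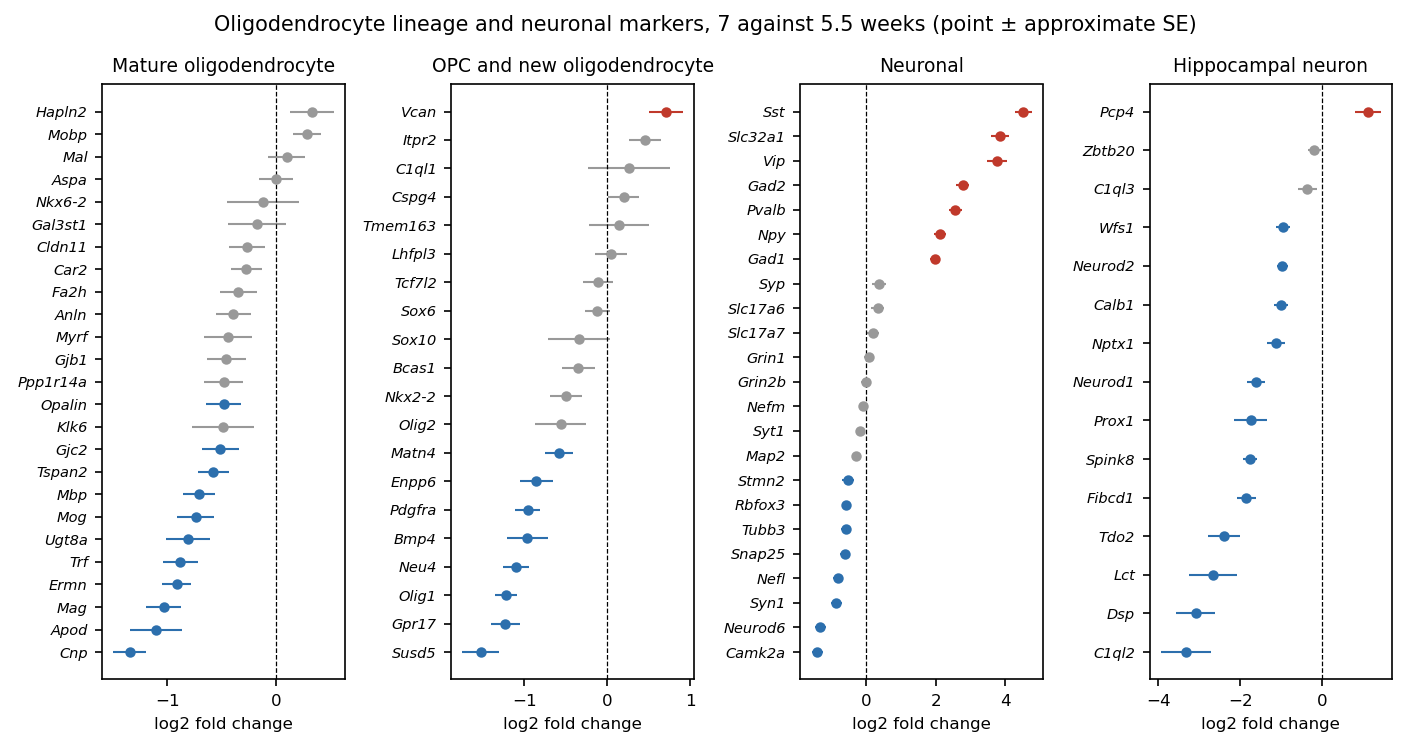
Each point is the log2 fold change of 1 marker at 7 against 5.5 weeks with a bar of 1 approximate SE, red and blue for genes called higher and lower, in 4 lists, with 25 of the 26 myelin markers drawn. Myelin markers reach down to Cnp at −1.35, hippocampal markers to C1ql2 at −3.33, and the interneuron genes at the top of the neuronal panel lie between 1.98 and 4.52.

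Microglial transcripts were higher at 7 weeks throughout the list. All 23 homeostatic microglia markers were called higher by edgeR, with a median of 4.36, and their summed level went from 80.7 to 105 CPM to 1356 CPM. P2ry12, the ADP receptor of resting microglia, had 2.33, 3.25 and 2.22 CPM at 5.5 weeks and 53.1 CPM at 7 weeks, 20.4-fold higher (4.36 ± 0.20, SE; edgeR adjusted p = 1.12e-07). C1qa, a chain of complement C1q, had 4.19, 4.72 and 4.0 CPM and then 82.8 CPM. Csf1r, the survival receptor of microglia, had 5.8, 7.4 and 5.69 CPM and then 116 CPM. These 3 lay above every 5.5-week library, as did 45.2% of all genes. Tmem119, Gpr34, Selplg and Pld4, further genes of microglia among the 15 largest rises, were 25- to 30.4-fold higher. Itgam, another member, had at most 5 counts in any 5.5-week library. It passed the low-count filter through the 7-week library alone, so it had to be higher. In mock the list's median was 0.52 with 0 members called by edgeR, where 11 genes (0.0559%) were called higher and 4 (0.0203%) lower of 19693.

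Of 18 genes of disease-associated microglia, a state taken up near myelin debris, 12 were higher and 0 lower. Lyz2, lysozyme, had 3.8, 6.56 and 4.0 CPM and then 98.4 CPM. Spp1, osteopontin, had 1.5, 3.68 and 2.26 CPM and then 53.3 CPM. The growth factor Igf1 had 1.0, 1.89 and 1.33 CPM and then 17.3 CPM. In each the 7-week library lay above all 3, as in 45.2% of all genes. Clec7a and Ccl6 had log2 fold changes of 3.86 and 3.91. Apoe, the lipid carrier that astrocytes also make in quantity, had 7453, 9109 and 7076 CPM and then 6724 CPM, and with Lpl, Cd9, Axl, Csf1 and Fabp5 it was not called.

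Vascular transcripts were prominent among the largest rises, with 6 endothelial and pericyte markers among the 15 largest. All 17 endothelial markers were called higher (median 5.62), from Bsg at 0.37 to Tek at 7.19. Cldn5, the claudin of brain endothelial tight junctions, had 0.43, 0.707 and 0.767 CPM at 5.5 weeks and 57.9 CPM at 7 weeks (6.52 ± 0.22; edgeR adjusted p = 2.81e-08). Flt1, a VEGF receptor, had 0.573, 1.46 and 0.525 CPM and then 72.3 CPM. Both were very low in all 3 libraries at 5.5 weeks. Any of the 17 with only a few counts there passed the low-count filter through the 7-week library alone, so it had to be higher. Slco1a4, an anion transporter of the blood-brain barrier, had 0.358, 1.51 and 1.37 CPM and then 52.9 CPM. Slc22a8, another such transporter, had 0.43, 0.755 and 1.09 CPM and then 26.7 CPM. Ly6c1, a surface protein of endothelial cells, had 2, 3 and 11 counts and then 777, and Ly6a 4, 12 and 19 and then 681. Reads shared with close relatives of the Ly6 family cannot be told apart here. Adgrf5 and the transcription factor Fli1 had log2 fold changes of 4.87 and 4.73.

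Of 14 pericyte and smooth muscle markers tested 12 were higher and 0 lower. Vtn, vitronectin, made by brain pericytes, had 0.286, 1.23 and 1.57 CPM and then 68.6 CPM. Rgs5, a regulator of G protein signalling, had 17.8, 20.4 and 21.9 CPM and then 161 CPM. Of 15 fibroblast markers 9 were higher, with Ptgds, a prostaglandin D synthase, at 117, 147 and 109.6 CPM and then 351 CPM (1.5 ± 0.15). Blood genes were higher in all 5 members tested, with the globin Hbb-bs at 1.93, 2.55 and 3.11 CPM and then 31.3 CPM. Of 16 lymphocyte markers 8 passed the filter on low counts, and those 8 were higher. Genes at a few counts pass that filter through the 7-week library alone, so they had to differ. The same holds for the pericyte markers Kcnj8, Higd1b, Abcc9 and Anpep and the fibroblast markers Col3a1, Slc22a6 and Igf2. It also holds for the globin Hbb-bt. These had at most 9 counts in any 5.5-week library. The summed lymphocyte level was 4.05 to 5.0 CPM and then 28.2 CPM. Cells with no GFAP-Cre history are not known to carry the tag, and how their RNA came into this library was not tested.

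RNAs that ribosomes in the cytoplasm do not translate were higher as well. Of 14 nuclear and long noncoding RNAs 12 were higher and 0 lower, and their summed level went from 359.7 to 494 CPM to 6532 CPM. Malat1, a nuclear RNA of speckles, had 85.8, 173 and 162 CPM at 5.5 weeks and 3354 CPM at 7 weeks (4.58 ± 0.33; edgeR adjusted p = 0.000107). The 5.5-week libraries differed among themselves, and the call was lost without replicate 2 (4.73; edgeR adjusted p = 0.157). Kcnq1ot1, an imprinted RNA that silences its neighbours, had 2.94, 3.96 and 3.8 CPM and then 92.7 CPM. Reads from it and from the overlapping gene on the other strand cannot be told apart, since the kit does not mark strand. Rian and Miat had log2 fold changes of 2.66 and 3.76. Tug1 and Pvt1 were the members not called (−0.44 and 0.16). Of the mRNAs of the mitochondrial genome, which mitochondrial ribosomes translate, all 10 tested of 13 listed were higher. Among these mt-Co2, mt-Atp6 and mt-Co3 had at most 9 counts in any 5.5-week library and passed the filter only through the 7-week one, so they had to differ. The complex III subunit mt-Cytb had 82.1, 119 and 84 CPM and then 1171 CPM. The complex I subunit mt-Nd1 had 30.8, 46.4 and 32.8 CPM and then 454 CPM.

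Complement and antigen presentation genes were higher together with the microglial markers. The lists overlap: C1qa, C1qb, C1qc and Itgam are on both the complement and the homeostatic microglia list. Itgax is on both the complement and the disease-associated list. Of 16 complement genes tested 12 were higher and 0 lower (median 2.83). C4b, which astrocytes make in cuprizone lesions, had 102, 97.6 and 85.9 CPM at 5.5 weeks and 149 CPM at 7 weeks (0.64 ± 0.13; edgeR adjusted p = 0.00291), a smaller rise than that of the microglial C1qb (4.22 ± 0.23), a difference that was not tested. C3ar1, the C3a receptor, had a log2 fold change of 4.23. Among the higher members Itgam and C5ar1 had at most 5 counts in any 5.5-week library. They passed the low-count filter through the 7-week library alone, so they had to be higher. Serping1, the C1 inhibitor, had 18.5, 15.8 and 14.9 CPM and then 22.1 CPM and was not called. Of 20 antigen presentation genes 14 were higher and 0 lower. Cd74, the class II invariant chain, had 3.4, 6.13 and 5.21 CPM and then 73 CPM. H2-Ab1, a class II chain, had 1.29, 1.41 and 1.37 CPM and then 15.9 CPM. H2-K1, a class I heavy chain whose reads can be shared with near copies, had 31.5, 45.1 and 30.2 CPM and then 91.6 CPM.

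Interferon response genes were mixed: 8 of 31 were higher, against 25.1% of all genes, and 3 lower, with a median of 0.16. Trim30a, a regulator of innate immunity, had 4.26, 3.87 and 2.87 CPM and then 9.0 CPM, and Ifit3, Usp18 and Irgm1 were the lower ones (−0.59, −0.61 and −0.65). Oas2, among the higher ones, had at most 8 counts in any 5.5-week library. It passed the filter through the 7-week library alone, so it had to be higher. With library totals 12 were higher and 0 lower. Of 17 chemokines and cytokines tested 8 were higher and 3 lower. Among the higher ones Ccl12, Ccl4, Il1a, Ccl5 and Ccl7 had at most 8 counts in any 5.5-week library. They passed the filter through the 7-week library alone, so they had to be higher. Cxcl12, a chemokine of vessels and glia, had 32.2, 25.6 and 31.8 CPM and then 78.5 CPM (edgeR adjusted p = 3.93e-05). The lower ones were Cx3cl1, the neuronal ligand of the microglial receptor Cx3cr1, with 1122, 978 and 1179.7 CPM and then 666 CPM, the alarmin Il33 (−0.45) and Cxcl14 (−0.36). Cxcl10, a chemokine of reactive astrocytes, was not called (0.57).

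Chaperones of the endoplasmic reticulum (ER) were lower at 7 weeks. Secreted and membrane proteins fold there, and the unfolded protein response (UPR) raises the chaperones when folding fails. Of 21 genes of this list 14 were lower and 1, Edem1, higher, and 20 of 21 lay below every 5.5-week library, against 36.2% of all genes. Hspa5, the chaperone BiP and the usual readout of the response, had 924, 958 and 928 CPM at 5.5 weeks and 447 CPM at 7 weeks, 2.09-fold lower (−1.07 ± 0.13, SE; edgeR adjusted p = 9.82e-05). Pdia6, a disulfide isomerase, had 362, 339 and 367 CPM and then 192 CPM. Its relative Pdia3 had 482, 505 and 523 CPM and then 282 CPM. In all 3 genes the 5.5-week libraries lay close together and the 7-week library well below them. Sdf2l1, an ER protein that works with BiP, had 50.5, 54 and 51.4 CPM and then 29 CPM. These 4 had the lowest p of the list. The median was −0.45 and the level-adjusted median −0.15. Under library totals 5 were lower and 1 higher, with a median of −0.16, and in mock the median was −0.04.

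Promoters of this list are shown because its members were lower together and some of them are known as targets of 1 element. The ER stress response element is CCAAT, then 9 bases of any kind, then CCACG, which the factors NF-Y and ATF6 bind. It was searched on both strands in the 250 bases before the start of each gene in RefSeq (build GRCm38.p6), where 18 of the 21 genes had an entry. It was found in 8 of 18, against 37 of 32851 promoters in all (0.113%). Since the list holds known targets, this excess is not a result of these data. Of the 11 lower members with an entry 4 held it, and of the 7 others 4 did, so that its presence did not part lower members from the rest. The 250 bases are printed 5′ to 3′ on the gene's strand for the 2 lowest-p members that hold it, with the fixed bases of the element in capitals.
Hspa5 (chr2:34771840-34772089, plus strand): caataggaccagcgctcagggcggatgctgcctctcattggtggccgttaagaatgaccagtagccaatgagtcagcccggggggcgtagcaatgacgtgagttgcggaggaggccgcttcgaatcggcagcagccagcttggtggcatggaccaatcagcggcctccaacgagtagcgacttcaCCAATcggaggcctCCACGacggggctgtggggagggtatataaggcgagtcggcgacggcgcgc
Pdia6 (chr12:17266339-17266588, plus strand): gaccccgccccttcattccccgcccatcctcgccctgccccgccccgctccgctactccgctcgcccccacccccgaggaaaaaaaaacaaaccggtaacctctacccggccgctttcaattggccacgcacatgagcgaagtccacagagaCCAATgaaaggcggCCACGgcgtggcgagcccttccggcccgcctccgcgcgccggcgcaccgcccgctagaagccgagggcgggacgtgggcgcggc
The element alone is given for the other 6, of which Creld2 and Calr were lower and the rest not called. CGTGG before ATTGG marks the element on the opposite strand, and Hsp90b1 holds it on both.
Creld2 (chr15:88819520-88819538): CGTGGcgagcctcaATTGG
Calr (chr8:84847075-84847093): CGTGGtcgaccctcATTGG
Hsp90b1 (chr10:86705638-86705656): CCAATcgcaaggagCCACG
Hsp90b1 (chr10:86705533-86705551): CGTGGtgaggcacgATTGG
Canx (chr11:50325800-50325818): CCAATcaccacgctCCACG
Dnajc3 (chr14:118937827-118937845): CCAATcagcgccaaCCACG
Syvn1 (chr19:6046532-6046550): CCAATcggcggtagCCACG
Creld2 and Calr had log2 fold changes of −0.66 and −0.51, and Hsp90b1, Canx, Dnajc3 and Syvn1 of −0.30, −0.27, −0.29 and −0.19. A match describes the letters and does not show that a factor binds there.

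Heat shock proteins of the cytosol and of mitochondria were lower too. Of 20 genes 11 were lower and 1, Hspb1, higher (median −0.50, level-adjusted −0.22, 7 lower under library totals). Hspa8, the constant Hsp70 of the cytosol, had 2089, 1884 and 2185 CPM and then 1092 CPM (1.88-fold lower; edgeR adjusted p = 0.000547). Hspa2, a relative, had 219, 202 and 192 CPM and then 87.7 CPM (2.33-fold lower). Hsph1, a nucleotide exchange factor of Hsp70, was 1.87-fold lower, and Hspd1, the mitochondrial chaperone Hsp60, 1.71-fold lower. The heat shock element, in the form GAA, TTC and GAA with 2 bases of any kind between, searched on both strands, lay in the 250 bases before the start of 2 of 15 members with an entry, against 0.466% of all promoters. Both are Hspd1 and Hspe1, which share 1 promoter and start in opposite directions from it, so the 2 matches are 1 stretch of sequence. Since the list holds heat shock genes, the excess over all promoters is not a result of these data. Read on the strand of Hspe1, the sites overlap, with the fixed bases in capitals.
Hspe1, element on the opposite strand (chr1:55088059-55088071): TTCtaGAAccTTC
Hspe1, element on the same strand (chr1:55088064-55088076): GAAccTTCcgGAA
Hspd1 and Hspe1, the pair of mitochondrial chaperones, were both lower, at −0.78 and −0.48.

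Of 35 genes of the integrated stress response, through which ATF4 raises amino acid supply, 11 were lower and 2 higher (median −0.31). Gpt2, an alanine aminotransferase, had 190.4, 153 and 167 CPM and then 83.4 CPM (2.04-fold lower). Psat1 of serine synthesis had 316, 339 and 288 CPM and then 196 CPM. Ddit4, an inhibitor of mTOR, had 112, 87.3 and 100.3 CPM and then 53 CPM. All 3 lay below every 5.5-week library, as did 36.2% of all genes. Of all genes tested 25.1% were higher and 15.5% lower. The lower members Gpt2, Psat1, Aars, Phgdh, Wars, Asns, Gars and Nars lie over 100 CPM, where the median of all genes was −0.40. A part of level in these falls was not tested. The higher ones were the amino acid transporters Slc7a11 and Slc7a5 (0.84 and 0.95). Atf4, Atf3, Atf5 and Trib3 were not called, at 0.33, 0.21, 0.27 and 0.84. Under library totals 5 were lower and 8 higher.

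Genes of energy metabolism were lower in part, by about as much as other genes of their level. Of 27 glycolysis and glycogen genes 18 were lower and 4 higher, with a median of −0.49 and a level-adjusted median of −0.09. Pfkl, a phosphofructokinase, had 629.8, 477 and 583 CPM and then 269 CPM (2.09-fold lower; edgeR adjusted p = 0.000562). Hk1, a hexokinase, had 491, 416 and 478 CPM and then 262 CPM. Both lay below every 5.5-week library, as did 36.2% of all genes. The higher members were the glucose transporter Slc2a1, which endothelial cells also make in quantity (34, 39.3 and 35.1 CPM and then 86 CPM), the monocarboxylate transporters Slc16a1 and Slc16a3, and Hk2. Under library totals 4 were lower and 5 higher. Of 75 respiratory chain subunits coded in the nucleus 32 were lower and 1 higher (median −0.33, level-adjusted −0.03). Atp5a1 of the ATP synthase had 1018, 1042 and 1083 CPM and then 649.8 CPM. Atp5b, another subunit, had 1342, 1337 and 1505 CPM and then 882 CPM. The subunits coded in mitochondria, given above, were higher. The fall of the nuclear list depends on the library and the scaling: with 7-week replicate 1 the median was 0.05, and under library totals 2 were lower.

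Cholesterol synthesis, which astrocytes and oligodendrocytes both run, had no higher calls, against 25.1% of all genes. Its share of lower calls was near the 15.5% of all genes. Of 21 genes 3 were lower and 0 higher, with a median of −0.14, which turned to 0.15 under library totals (2 higher, 0 lower). Hmgcs1, an early enzyme of the pathway, had 362, 355 and 357 CPM and then 305 CPM (−0.23 ± 0.12; edgeR adjusted p = 0.154). Hmgcs1 was called lower with 7-week replicate 1 (−0.40) and without 5.5-week replicate 2 (−0.27). The lower ones were Acat2, Hsd17b7 and Lss, between −0.45 and −0.43, with edgeR adjusted p from 0.02 to 0.0446. All 3 calls were lost without 5.5-week replicate 1, where the values were −0.40, −0.44 and −0.36. Among 27 genes of sterol sensing, uptake and efflux 5 were higher and 1 lower, a smaller share higher than the 25.1% of all genes, while under library totals 14 were higher and 1 lower. Abca1, the cholesterol efflux pump, had 22.4, 26.4 and 21.7 CPM and then 57.3 CPM (1.29 ± 0.15; edgeR adjusted p = 7.13e-05). Lrp1, a lipoprotein receptor, had 91.3, 101 and 71.9 CPM and then 177 CPM. Both lay above every 5.5-week library, as did 45.2% of all genes. Apod, a lipid carrier of oligodendrocytes, was 2.15-fold lower, and Apoe, Clu, Abcg1 and Srebf2 were not called.

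Of 23 immediate early genes, which neurons and glia switch on within minutes of stimulation, 10 were lower and 2 higher. Arc, a synaptic protein induced by activity, had 295, 226 and 284 CPM at 5.5 weeks and 79.9 CPM at 7 weeks, 3.36-fold lower (−1.75 ± 0.18, SE; edgeR adjusted p = 2.31e-05). Egr3, a transcription factor, had 161, 179 and 169 CPM and then 82.3 CPM. Nr4a1, a nuclear receptor, had 146, 149.9 and 124 CPM and then 61.9 CPM. In these 3 genes the 7-week library was the lowest, as in 36.2% of all genes. Jun had 251, 172 and 273 CPM and then 93.1 CPM. Its partner Fos was not called, with 36.9, 41.6 and 38.9 CPM and then 39.7 CPM, inside the range. Egr1 had 389, 398 and 389.6 CPM and then 342 CPM and was not called. The higher ones, Klf2 and Klf4, are known from endothelial cells (3.35 and 4.12). The median was −0.13 and became 0.17 under library totals, with 7 lower and 4 higher. In mock the list's median was 0.75 from 5.5 to 7 weeks, with 6 members called higher, and Arc was at 195 and 148 CPM at 5.5 weeks and 649 CPM at 7 weeks (log2 fold change 1.92).

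Matrix and lysosomal genes were higher in part. Of 29 extracellular matrix genes 17 were higher and 1, the brain proteoglycan Bcan, lower (median 0.71). Fn1, fibronectin, had 2.9, 2.22 and 3.59 CPM and then 24.9 CPM. Col4a2 of vessel basement membranes had 8.49, 7.92 and 7.11 CPM and then 22.2 CPM. Col6a1, another collagen, had 3.22, 4.57 and 2.75 CPM and then 33.5 CPM. All 3 lay above every 5.5-week library, as did 45.2% of all genes. Proteoglycans and link proteins of glia, Ncan, Cspg5, Tnr and Hapln1, were not called, from −0.25 to 0.25. In mock the matrix median was −0.29. Of 32 lysosomal genes 14 were higher and 1, Psap, lower. The largest rises were in genes of microglia, Ctss, Ctsh and Cd68 (4.55, 3.98 and 3.59). The membrane proteins Lamp1 and Lamp2 and the protease Ctsb were not called, at 0.03, 0.05 and −0.07.

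Growth factors were split. Of 20 tested 6 were higher and 4 lower, against 25.1% and 15.5% of all genes, and under library totals 7 and 3. Among the higher ones Tgfb1, Igf2 and Osm had at most 4 counts in any library of early recovery. They passed the low-count filter through the 7-week library alone, so they had to be higher. The median of −0.05 was 0.24 under library totals. Igf1, which microglia and other cells make and which promotes oligodendrocyte maturation, was higher, as given above. Bdnf, a neurotrophin of neurons, had 74.3, 65.6 and 79.9 CPM and then 30.5 CPM, 2.4-fold lower (−1.26 ± 0.16; edgeR adjusted p = 0.000118). Ntf3 and Fgf1 were lower, at −2.16 and −0.57, and Tgfb2 had 75.9, 59.7 and 76.2 CPM and then 35.5 CPM (−0.99, and −0.47 with 7-week replicate 1). Tgfbr1, a receptor of TGF beta that microglia and vessels also carry, had 9.42, 9.86 and 10.5 CPM and then 43.6 CPM. Its partner Tgfbr2 had 4.3, 3.4 and 4.0 CPM and then 24.8 CPM. Id1, a target of BMP signalling, had 15.3, 17.4 and 16.7 CPM and then 39.1 CPM. Of the 25 BMP, TGF beta and Id genes 8 were higher and 4 lower, against the same 25.1% and 15.5%, and under library totals 15 and 4. Pdgfa and Fgf2, growth factors for oligodendrocyte precursors, were not called, at −0.07 and −0.03.

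**Figure D5:**
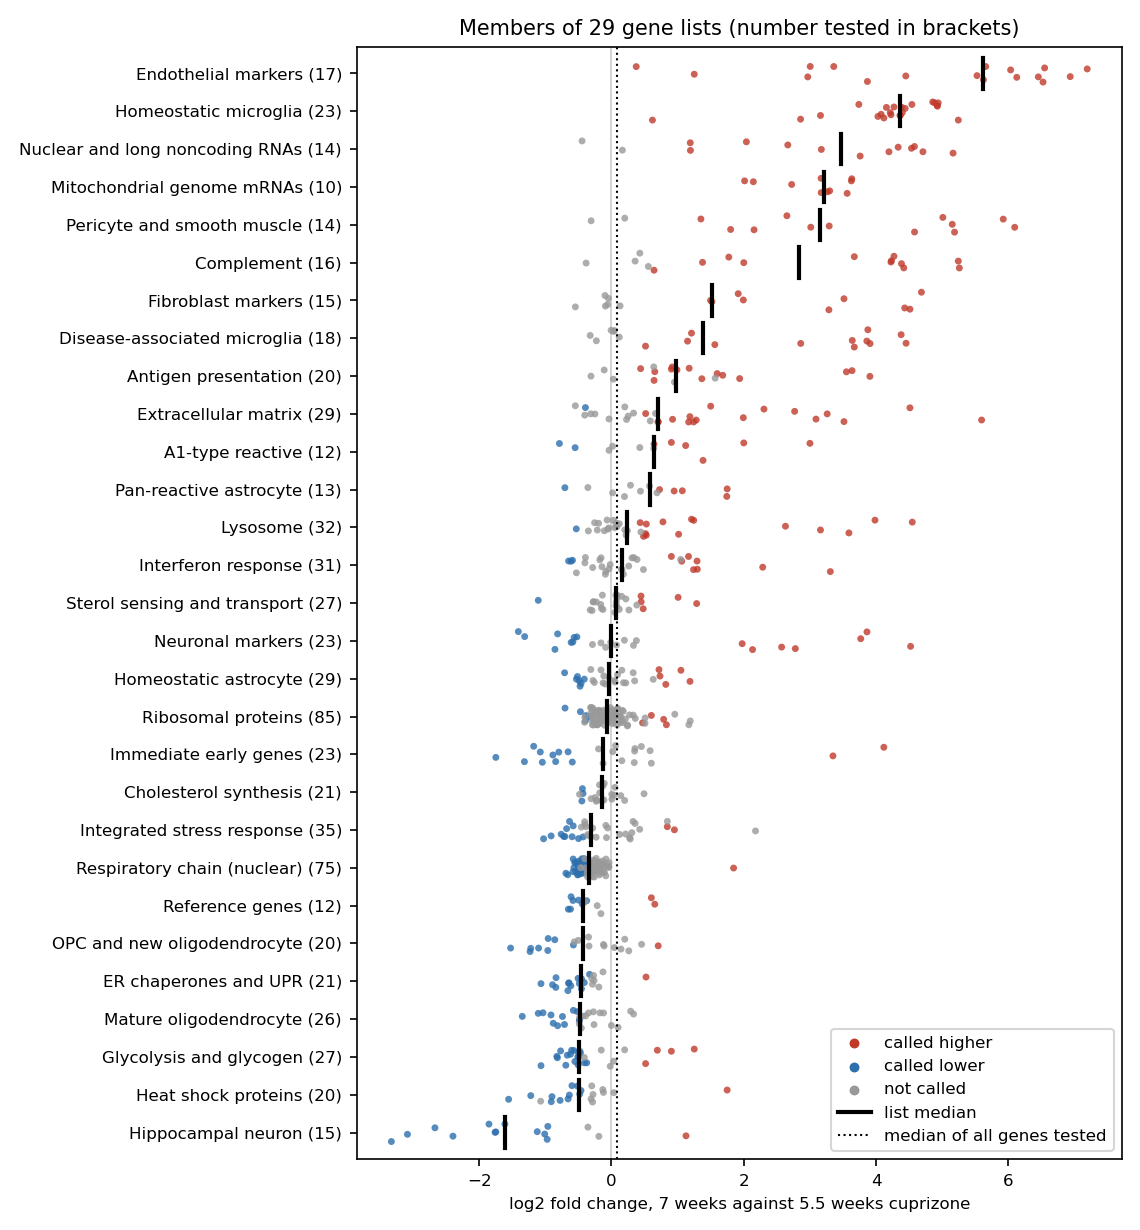
Each point is a gene's log2 fold change at 7 against 5.5 weeks, by list, with red and blue for genes called higher and lower; black bars are list medians and the dotted line is the median of all genes tested, 0.08. Lists are ordered by median, from hippocampal neuron markers at −1.61 to endothelial markers at 5.62.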

How the data were processed

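RNA was pulled down with tagged ribosomes from corpus callosum, amplified with a low-input kit that does not mark strand, and sequenced, per the labels' protocols. The authors deposited raw counts per Ensembl gene (55414 genes), made with STAR 2.5.4b and featureCounts 1.6.0 per the submitters' processing notes, which name both GRCm38 and GRCm39, so no coordinates are given for the counted genes. In the deposited table, replicates 1 and 3 of 7-week cuprizone hold numbers that largely repeat replicate 2, and only replicate 2 was used as a count. No value column was left unmapped (0). GENCODE names matched 94.0% of IDs.

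R 4.3.3 with edgeR 4.0.16 was used: TMM factors (0.941 to 0.959 at 5.5 weeks, 1.16 at 7 weeks), filterByExpr with a minimum count of 10, and the quasi-likelihood test of 1 library against 3, with 2 residual degrees of freedom and a threshold of 0.05. A printed SE is approximate, the log2 fold change divided by the square root of the F statistic. The range rule used log2 CPM with a prior count of 2, at least 5 CPM in 1 library and a 2-fold margin. P-values measure only the spread between these libraries, which may be technical. Depth was 22115776 to 29698113 counts per library. Mock libraries 1 and 3 at 5.5 weeks and 3 at 7 weeks, the others being repeats of them, entered a separate fit of 7 libraries with 3 residual degrees of freedom. The scripts were tested on simulated data.

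Genes named are the 15 with the largest called change in each direction (mean of at least 10 CPM), up to 4 members of lowest p in each list described, and 22 defining genes; other members were named after their values were seen. Members and lists were chosen with earlier results of these data known. Alternatives covered scaling, filters, DESeq2 1.42.0, limma-voom (limma 3.58.1), each 5.5-week library left out, the other 7-week libraries, and a replicate block. Promoter sequences and their coordinates are from RefSeq, GRCm38.p6. A few list members are counted but not reported here by name.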

Additional observations from a re-analysis of the deposited data

How the results depend on the processing

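Limits come first. The 7-week side is 1 library with far more genes detected than any other, so the test's error is borrowed from 5.5 weeks, and genes under a few CPM at 5.5 weeks rest on few counts. Leaving out each 5.5-week library in turn gave 4276 to 5920 higher and 2190 to 5025 lower calls by edgeR, and 842 to 936 genes above and 112 to 302 below the range, the upper ends all without replicate 2. With library totals there were 871 lower calls, and 1208 genes above and 36 below the range. Fewer genes were tested and called with a filter of 5 CPM (2114 higher, 1393 lower) and with a minimum count of 50 (3181 and 1950). DESeq2 called 2676 higher and 2627 lower. The range rule gave 2316 genes above at a minimum of 1 CPM and 252 at 20 CPM. With 7-week replicate 1 in place of replicate 2 edgeR called 5969 higher and 3658 lower, with 649 and 71 genes beyond the range. All 6 libraries as deposited gave 7327 higher and 6290 lower calls, and 7123 and 6077 with the replicate number as a block, but the 7-week libraries repeat each other, so that neither these counts nor a check of the pairing is sound.

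Some medians and genes changed sign, and except where replicate values show it the cause was not tested. Under library totals the medians were 0.15 for cholesterol synthesis, 0.012 for NRF2 targets, 0.17 for immediate early genes and 0.0052 for cell cycle genes, and medians close to 0 also turned positive there (growth factors 0.24, copper genes 0.26, neuronal markers 0.28, intermediate filaments 0.2, choroid plexus markers 0.19, ribosomal proteins 0.23 and homeostatic astrocyte genes 0.25). With a filter of 5 CPM, which leaves fewer members, ependymal markers had a median of −0.018 and chemoreceptor genes of −0.077. Against genes of the same level, a setting chosen after seeing the data, cholesterol synthesis was at 0.046 and ependymal markers at −0.19. With 7-week replicate 1 the respiratory chain median was 0.048, Cebpd was at 0.23, Mt1 at 0.28 and Sostdc1 at 0.64, all from higher counts there than in replicate 2. Mt1 was at 0.051 with replicate 3 and 0.026 with the mean of the 3 libraries. DESeq2's size factors, limma-voom, the fit of 7 libraries and centring on the homeostatic astrocyte list (also chosen after seeing the data) kept the counts over all genes within 1.5 times. Within lists small counts moved more: under that centring 1 interferon gene and 1 cholesterol synthesis gene were lower, in place of 3 each, 1 A1-type gene in place of 2, and 0 copper genes in place of 2.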

Other observations

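Iron and copper genes gave a mixed picture, and the counts below stand beside 25.1% higher and 15.5% lower of all genes. The ferritin chains Ftl1 and Fth1 were higher. Ftl1 had 55.7, 59.2 and 51.9 CPM at 5.5 weeks and 143 CPM at 7 weeks (1.36 ± 0.13, SE; edgeR adjusted p = 1.18e-05). Fth1 had 724, 880.5 and 839.9 CPM and then 1589 CPM (0.96 ± 0.13; edgeR adjusted p = 0.000244). Both have processed pseudogenes, so reads may be shared. Of the 27 targets of NRF2, the antioxidant factor, these and the export pump Abcc1 and Gsr were higher and 7 lower, with a median of −0.28 (0.01 under library totals). Among 13 copper genes tested Cox17, a copper chaperone, was higher (1.04, 1.18 and 1.41 CPM and then 8.79 CPM), and Mt1 and Sod1 lower (−0.39 and −0.41). Both of these calls were lost without 5.5-week replicate 3 and with 7-week replicate 1, where Mt1, a metallothionein, was at 0.28.

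Of 15 neural stem cell and neuroblast markers 9 were higher and 1 lower. Nes, an intermediate filament of progenitors and of vessels, had 2.04, 2.03 and 1.25 CPM and then 12.3 CPM. Dcx, a protein of young neurons, had 9.45, 10.4 and 9.41 CPM and then 24.2 CPM, and the interneuron factors Dlx1 and Dlx2 had log2 fold changes of 2.19 and 1.62. Mki67 and Top2a, genes of dividing cells, were not called (0.20 and −0.09). Of 25 cell cycle genes 6 were lower and 1 higher, with Ccnd1, cyclin D1, at 152, 152 and 138 CPM and then 88 CPM (−0.74 ± 0.13); the list's median of −0.29 became 0.0052 under library totals. Of 85 cytosolic ribosomal protein genes tested 4 were higher and 5 lower, far below the 25.1% and 15.5% of all genes (median −0.07). Under library totals 15 were higher and 0 lower (median 0.23). Rpl22, the tagged protein's gene, had 31.3, 32 and 35.1 CPM and then 29.4 CPM (−0.16 ± 0.15; edgeR adjusted p = 0.427). Ttr, a marker of choroid plexus, varied between libraries, with 10.03, 21.6 and 34.1 CPM and then 45.2 CPM, and was not called. It was called higher without 5.5-week replicate 1 or 3 (0.70 and 1.52), and replicate 1 at 7 weeks held 8349 counts against 1295 in replicate 2.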
